A study of Mus musculus with 6 samples.

Results

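The class I antigen presentation pathway and its inducible proteasome were followed through 10 genes on 6 arrays: H2-K1, B2m, Tap1, Tap2, Tapbp, Erap1, Psmb8, Psmb9, Psmb10 and Psme1. They were listed by function, and each was taken from probe sets annotated with that 1 gene symbol. All 10 were found, on 11 probe sets, among 22180 genes with a single-symbol probe set. MHC class I molecules show fragments of a cell's own proteins to cytotoxic T cells. The proteasome cuts the proteins, TAP carries the peptides into the endoplasmic reticulum, and a loading complex fits them onto a heavy chain paired with β2-microglobulin. Inflammatory cytokines exchange the catalytic subunits of the standard proteasome for those of the immunoproteasome; in resting muscle fibres class I is known to be scarce, and it appears in inflamed muscle.

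RNA came from C2C12, a mouse myoblast line that fuses into myotubes when serum is lowered. It was hybridised to 1 Affymetrix whole-transcript array for each of 6 groups. In growth medium (GM), with 10% FBS, cells were left untreated, or were given TNF-α at 50 ng/ml or 10 nM BTZ for 24 h. No time is recorded for the untreated GM culture. In the DM groups, kept in what the labels call 2% differentiation medium, cells were untreated and harvested on day 5, or received the same dose of TNF-α or of BTZ on day 4 and were harvested on day 5. The cytokine TNF-α drives inflammation, largely through NF-kB. BTZ is not spelled out in the labels and usually stands for bortezomib, a proteasome inhibitor. All groups are 1 cell line with 1 culture each. Differences between 2 arrays therefore come without an error or a test, and precision is limited by how few arrays there are. C2C12 derives from the C3H strain, whose class I alleles differ from those of the C57BL/6J reference genome; how this affects the H2-K1 probes was not tested. H2-K1 also has near-identical relatives, so its probe set may read more than 1 heavy chain gene. In bulk RNA, more cells with a transcript and more transcript per cell cannot be told apart.

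Promoter windows from 250 bases before to 50 after the annotated start are shown for 6 members: 4 with a match to a motif searched, and Psmb10 and Tap1 as windows without one. They are RefSeq sequences of build GRCm38.p6, in each gene's own orientation, and 9 of the 10 members had a window. Capitals mark matches on either strand to an interferon-response core, GAAANNGAAA, or to the kB consensus bound by NF-kB; the GAS motif of STAT factors, TTCNNNGAA, was also searched. The H2-K1 window, chr17:34000298-34000597 on the minus strand, holds 2 overlapping kB matches in 1 run of capitals. The B2m window, chr2:122147437-122147736 on the plus strand, holds an interferon-response core followed by a kB match. The windows of Erap1, chr13:74639603-74639902 on the plus strand, and of Psme1, chr14:55578244-55578543 on the plus strand, each hold 1 interferon-response core, read on the opposite strand. The Tap1 window, chr17:34187306-34187605 on the plus strand, holds none of the 3 motifs and is shown because 275 of its bases are also the window of Psmb9, which runs the other way. The Psmb10 window, chr8:105938343-105938642 on the minus strand, also holds none, and is shown because Psmb10 had the widest range of values. The windows of Tapbp and Psmb9, which are not shown, hold none either.
H2-K1: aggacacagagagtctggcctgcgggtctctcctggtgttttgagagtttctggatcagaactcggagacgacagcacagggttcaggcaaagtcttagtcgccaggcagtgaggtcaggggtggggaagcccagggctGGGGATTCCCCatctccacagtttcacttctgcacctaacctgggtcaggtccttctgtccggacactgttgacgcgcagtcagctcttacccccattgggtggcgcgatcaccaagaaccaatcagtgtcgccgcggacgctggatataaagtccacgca
B2m: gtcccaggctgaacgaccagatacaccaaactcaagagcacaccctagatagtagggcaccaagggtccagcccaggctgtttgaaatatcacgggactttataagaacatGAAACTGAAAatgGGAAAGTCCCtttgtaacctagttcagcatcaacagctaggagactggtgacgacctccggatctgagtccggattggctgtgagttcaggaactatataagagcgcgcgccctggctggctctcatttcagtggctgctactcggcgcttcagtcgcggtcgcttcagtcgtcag
Erap1: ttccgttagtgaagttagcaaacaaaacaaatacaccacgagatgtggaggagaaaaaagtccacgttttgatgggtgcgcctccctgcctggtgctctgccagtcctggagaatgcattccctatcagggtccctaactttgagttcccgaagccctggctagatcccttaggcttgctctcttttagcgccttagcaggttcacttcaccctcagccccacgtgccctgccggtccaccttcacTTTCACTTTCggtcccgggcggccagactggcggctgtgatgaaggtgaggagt
Psme1: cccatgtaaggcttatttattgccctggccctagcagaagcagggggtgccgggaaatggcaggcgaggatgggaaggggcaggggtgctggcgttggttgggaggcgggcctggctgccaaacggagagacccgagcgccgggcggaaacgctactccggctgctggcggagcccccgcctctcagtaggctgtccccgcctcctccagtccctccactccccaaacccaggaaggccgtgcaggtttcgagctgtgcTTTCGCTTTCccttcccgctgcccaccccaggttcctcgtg
Tap1: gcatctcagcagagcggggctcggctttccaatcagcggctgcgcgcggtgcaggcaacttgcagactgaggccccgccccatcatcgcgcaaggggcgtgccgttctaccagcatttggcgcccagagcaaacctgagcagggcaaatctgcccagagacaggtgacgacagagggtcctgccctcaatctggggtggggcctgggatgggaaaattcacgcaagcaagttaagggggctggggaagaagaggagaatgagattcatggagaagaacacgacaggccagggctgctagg
Psmb10: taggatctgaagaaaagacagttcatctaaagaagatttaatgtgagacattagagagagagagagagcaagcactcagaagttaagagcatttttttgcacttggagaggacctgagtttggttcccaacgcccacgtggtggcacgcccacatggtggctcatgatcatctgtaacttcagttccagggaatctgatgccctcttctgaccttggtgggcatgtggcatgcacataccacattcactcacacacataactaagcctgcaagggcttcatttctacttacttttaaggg

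Over all 32851 promoter windows, 3.44% hold the interferon-response core, 8.46% the kB consensus and 8.30% the GAS motif. Of the 9 members with a window, 3 hold the first, 2 the second and 1, Psmb8, the third. These matches describe letters in the window only. In the RefSeq order of genes, Psmb9, Tap1, Psmb8 and Tap2 follow each other on chromosome 17. H2-K1 and Tapbp also lie on chromosome 17, B2m on chromosome 2, Erap1 on 13, Psmb10 on 8 and Psme1 on 14.

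Values are log2 signals as deposited, and 1 unit is a 2-fold difference. The array medians lay between 5.01 and 5.11. A gene counted as measurable where its highest array reached the median of all values, 5.06, here called the floor; 13652 genes did, and 9 of the 10 members. Of 9 muscle markers, 6 were at least 2-fold higher on the untreated DM array than on the untreated GM array and 0 lower (median 1.74), from Myf5 at -0.91 to embryonic myosin Myh3 at 6.67. The leukocyte markers Ptprc, Cd3e, Itgam, Adgre1 and Lyz2 and the 3 endothelial markers were under the floor on all 6 arrays; Csf1r reached it on 1, and Cd68, which is not restricted to leukocytes, on all 6, from 5.63 to 7.74. Cd68 differed by 0.24 and 0.07 with TNF-α in GM and DM, and by 1.17 and 0.61 with BTZ.

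The heavy chain and its partner stand at the cell surface. H2-K1, the classical heavy chain that holds the peptide, measured 6.55 on the untreated GM array, 8.04 with TNF-α and 7.06 with BTZ, and 6.71, 8.72 and 6.75 in the same order in DM. B2m, the invariant light chain of every class I molecule, measured 11.62, 12.12 and 12.01 in GM and 11.93, 12.82 and 11.91 in DM. Both genes were highest on the TNF-α array of each medium, and in both the 2 TNF-α arrays lay above all 4 others, for B2m by a narrow margin.

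Peptide supply in the endoplasmic reticulum gave a mixed picture. Erap1, the aminopeptidase that trims peptides to the length of the groove, measured 6.74, 8.52 and 6.38 in GM and 7.01, 9.36 and 6.64 in DM. Tapbp, or tapasin, which bridges the transporter and the heavy chain, measured 7.30, 8.09 and 7.38 in GM and 7.52, 8.89 and 6.86 in DM. These 2 genes, like H2-K1 and B2m, had both TNF-α arrays above the other 4. The 2 subunits of the peptide transporter did not follow them so closely. Tap1 measured 6.29, 5.99 and 6.17 in GM and 5.59, 6.34 and 6.66 in DM, and Tap2 measured 5.17, 5.52 and 5.66 in GM and 5.57, 6.69 and 5.81 in DM. Tap1 was thus highest on the DM BTZ array, and Tap2 was clearly apart only on the DM TNF-α array.

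Of the 3 inducible catalytic subunits, only Psmb10 (MECL-1) was well above the floor. It measured 6.98, 8.40 and 6.18 in GM and 6.87, 9.66 and 6.48 in DM, a range of 3.48 that was the widest of the 10 members. Psmb8 (LMP7) measured 5.47, 5.55 and 5.70 in GM and 5.31, 6.49 and 5.24 in DM, so that 5 arrays lay just over the floor and the DM TNF-α array stood above them. Psmb9 (LMP2) stayed under the floor, between 4.37 and 4.78, on all 6 arrays and enters no count below. Psme1, the α subunit of the PA28 cap that opens the proteasome, measured 8.31, 9.04 and 8.53 in GM and 8.23, 9.05 and 7.98 in DM, with the 2 TNF-α arrays nearly level.

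**Figure D1:**
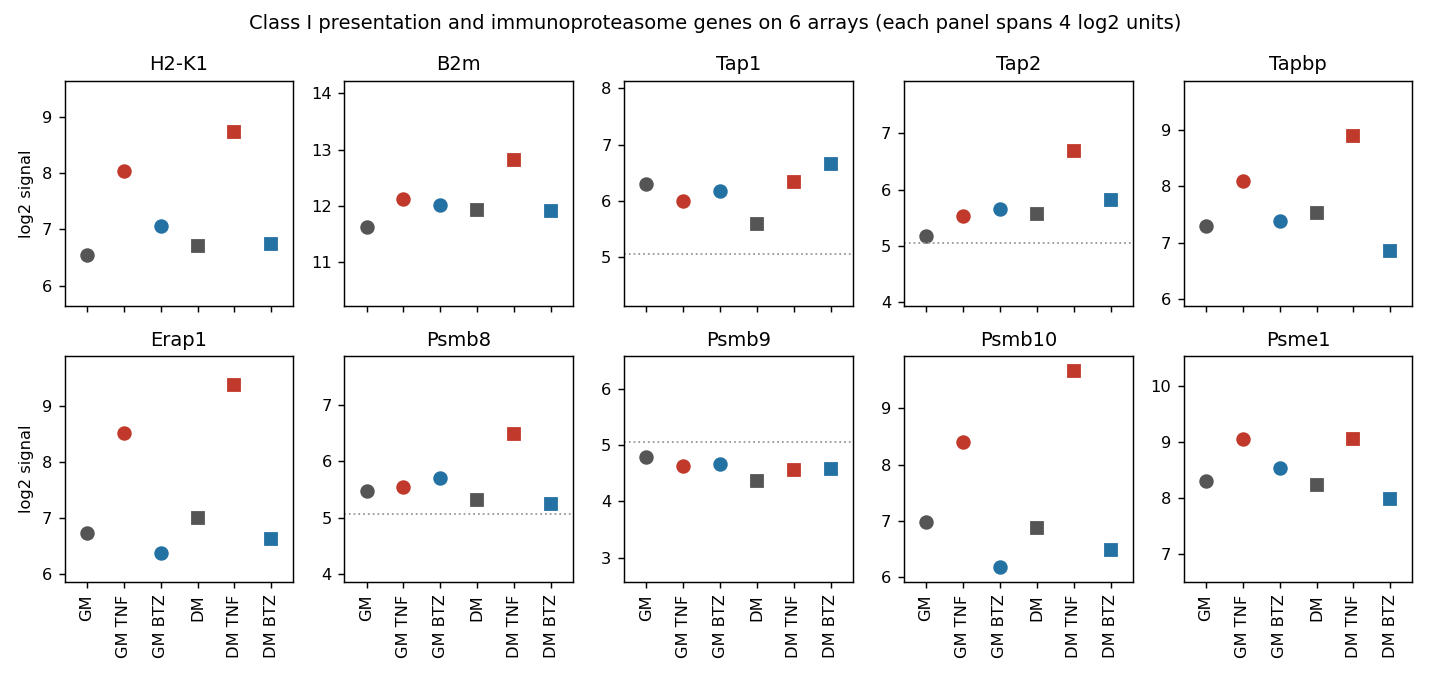
Log2 signal of each of the 10 genes (vertical axis, 4 log2 units in every panel) on the 6 arrays (horizontal axis); circles are growth medium, squares differentiation medium, grey untreated, red TNF-α and blue BTZ, and the dotted line is the floor of 5.06 where it falls in the panel. In H2-K1, Tapbp, Erap1, Psmb10, B2m and Psme1 the red points are the highest of their medium, while Psmb9 lies under the line on all 6 arrays.

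Across the 9 measurable members the DM TNF-α array was the highest of all 6 for 8, Tap1 being the exception, while 13.6% of all genes above the floor had that array highest. The TNF-α array was the highest of the 3 in both media for 6 members (H2-K1, B2m, Tapbp, Erap1, Psmb10 and Psme1), against 14.1% of all genes. In Tap2 and Psmb8 the GM BTZ array was slightly above the GM TNF-α array. The 4 arrays without TNF-α lay close together for some members: Erap1 spanned 6.38 to 7.01 over them and H2-K1 6.55 to 7.06. With 1 array a group, whether neighbours in these orders differ beyond their spread is not known.

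TNF-α in growth medium was set against the untreated GM array to ask how proliferating myoblasts answer the cytokine. Erap1 was higher by 1.78 (3.43-fold), H2-K1 by 1.49 (2.81-fold) and Psmb10 by 1.41 (2.67-fold). These 3 of 9 members were at least 2-fold higher and 0 were lower, against a background of 0.982% of genes higher and 1.02% lower by that much. Tapbp (0.79), Psme1 (0.74), B2m (0.50) and Tap2 (0.35) were higher by less than 2-fold, Psmb8 differed by 0.08 and Tap1 by -0.30. The median over the 9 was 0.74, beside 0.03 over all genes above the floor. The 2 probe sets of Tapbp gave 1.08 and 0.50. All 9 muscle markers were lower here, by values from -0.85 to -0.12 (median -0.54); their part in the result was not tested.

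TNF-α in differentiation medium, given for the last day to cultures already forming myotubes, was set against the untreated DM array. Psmb10 was higher by 2.79 (6.93-fold), Erap1 by 2.35 (5.10-fold) and H2-K1 by 2.02 (4.05-fold), followed by Tapbp at 1.37, Psmb8 at 1.18 and Tap2 at 1.11. That made 6 of 9 members at least 2-fold higher and 0 lower, beside 2.01% and 0.879% of all genes. B2m (0.89), Psme1 (0.82) and Tap1 (0.74) were higher by less. The median over the 9 was 1.18, beside 0.01 over all genes. The muscle markers were again lower, all 9 of them, by values from -1.15 to -0.09, with 1 past 2-fold; their part in the result was not tested. The Tapbp probe sets disagreed here: the brighter one was higher by 2.30 and the dimmer one by 0.43.

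**Figure D2:**
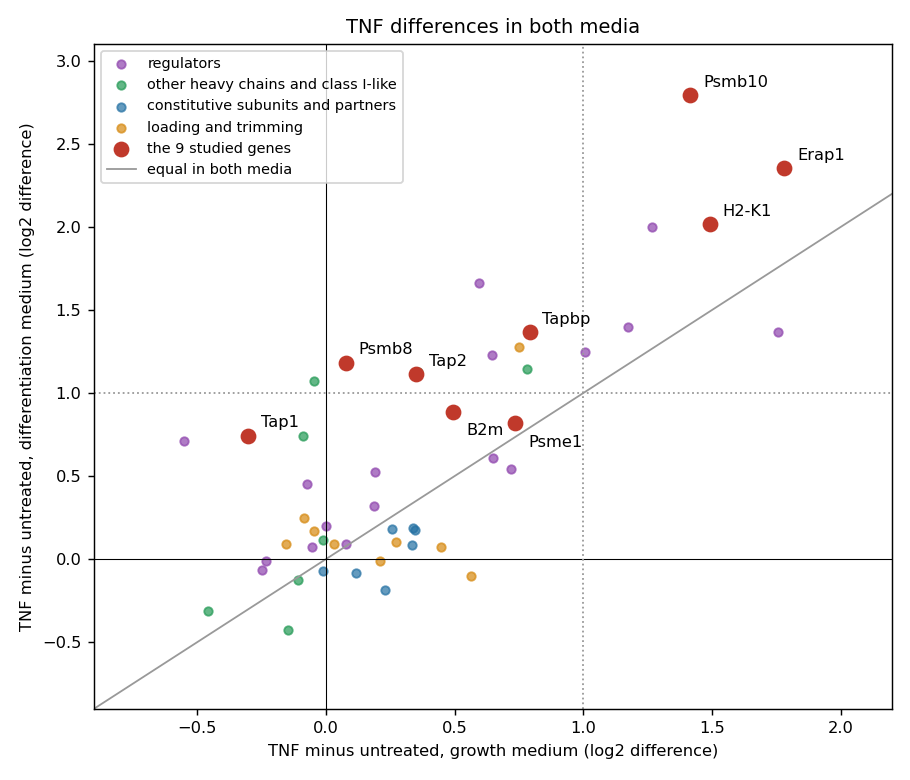
Log2 difference of TNF-α against untreated in growth medium (horizontal axis) and in differentiation medium (vertical axis) for the 9 measurable members (large red points) and for other class I pathway genes above the floor (small points by group); the solid line marks equal differences and the dotted lines 2-fold. All 9 members lie above the line of equal differences, with Psmb10, Erap1 and H2-K1 past 2-fold on both axes.

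The TNF-α difference was larger in DM than in GM for all 9 measurable members, beside 6408 of all 13652 genes above the floor. This contrast of 4 arrays has no test. The excess ran from 0.08 for Psme1 to 1.38 for Psmb10, with a median of 0.58 where the median over all genes was -0.03. It reached 2-fold for 3 members, Psmb10, Psmb8 (1.11) and Tap1 (1.04), beside 1.84% of all genes. A larger TNF-α difference in DM was not confined to the members. Among the related genes above the floor described below, it held for 14 of 17 regulators and 6 of 8 other heavy chains and class I-like genes. It also held for 5 of 9 other loading and trimming genes, and for 0 of 7 constitutive proteasome subunits and partners. For Tap1 the excess joins -0.30 in GM with 0.74 in DM, and the untreated DM array was its lowest of 6. Between the 2 TNF-α arrays themselves, DM was above GM by 0.01 (Psme1) to 1.26 (Psmb10). Psmb10 and Tap2 (1.16) were past 2-fold, beside 5.85% of all genes above the floor. Tnfrsf1a, which encodes the main receptor for TNF-α in most cells, measured 9.09 on the untreated GM array and 8.96 on the untreated DM array. Its part in the difference between media was not tested.

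To use both media at once, limma fitted an additive model of medium and treatment to all genes above the floor over the 6 arrays, with 2 residual degrees of freedom. The TNF-α effect was 2.10 (SE 0.336) for Psmb10, 2.07 (SE 0.215) for Erap1 and 1.75 (SE 0.264) for H2-K1, with adjusted p of 0.220, 0.0653 and 0.188. The other estimates were 1.08 (SE 0.320) for Tapbp, 0.78 (SE 0.203) for Psme1, 0.73 (SE 0.275) for Tap2, 0.69 (SE 0.198) for B2m, 0.63 (SE 0.349) for Psmb8 and 0.22 (SE 0.314) for Tap1. With limma and Benjamini-Hochberg adjustment at 0.05, 0 of 9 members passed, as did 0.0952% of all genes, 13 in number. At an unadjusted p under 0.05, 7 members were higher and 0 lower, all but Tap1 and Psmb8, beside 3.73% of all genes higher and 6.56% in either direction. Unequal treatment effects in GM and DM enter the residual of such a model. With both BTZ arrays left out, 6 members passed by limma at adjusted p between 0.00242 (Erap1) and 0.0458 (Psme1). They were Erap1, H2-K1, Psmb10, Tapbp, B2m and Psme1. Of all 13652 genes 206 passed in that fit, which has fewer residual degrees of freedom than the fit over 6 arrays. When only the GM BTZ or only the DM BTZ array is left out, the BTZ array that stays is fitted exactly. The TNF-α estimates then rest on the same untreated and TNF-α arrays, so this is no separate check of those 6 members. Leaving out any 1 of the untreated or TNF-α arrays gave 0, with an adjusted p for Erap1 between 0.0707 and 0.943.

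**Figure D3:**
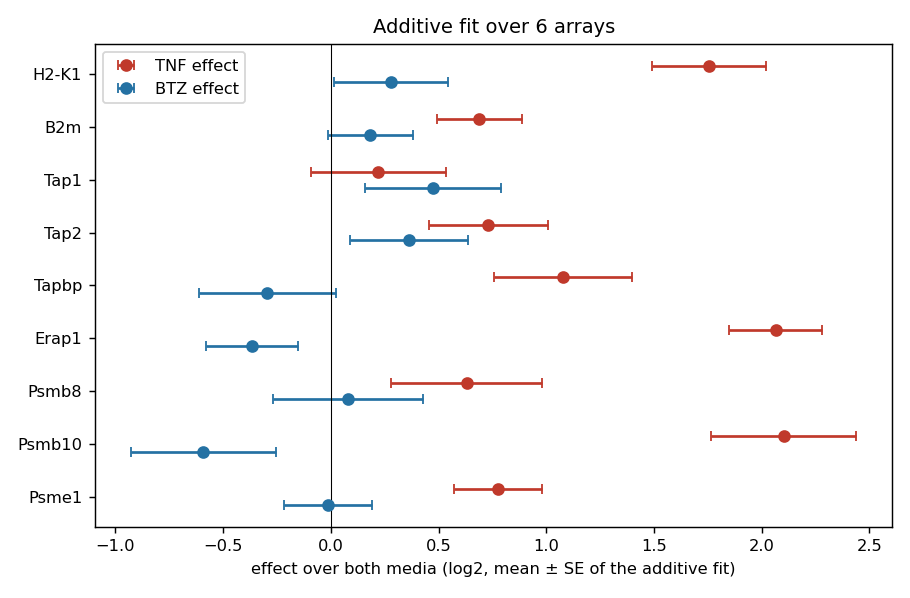
Effect of TNF-α (red) and BTZ (blue) over both media on the log2 scale (horizontal axis) for the 9 measurable members, from the additive fit over 6 arrays; points are estimates and bars 1 SE. The TNF-α estimates run from 0.22 to 2.10 and the BTZ estimates from -0.59 to 0.47.

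BTZ had no common direction among the members. In GM the differences from the untreated array ran from -0.80 (Psmb10) to 0.52 (H2-K1), with a median of 0.22, and 0 of 9 were past 2-fold. The background was 4.99% of genes higher and 6.16% lower by 2-fold or more. In DM they ran from -0.67 (Tapbp) to 1.07 (Tap1), with a median of -0.07. Tap1 was the 1 member past 2-fold, beside 6.05% of genes higher and 8.91% lower by that much. Muscle markers moved in this comparison, 8 of 9 being at least 2-fold lower (median -2.25). Cd68 rose with BTZ in the limma fit (0.89, SE 0.201, adjusted p = 0.0411, at most 0.312 over its alternatives). The part of either in the members' values was not tested. Psmb10 and Erap1 were lower with BTZ in both media: Psmb10 differed by -0.80 in GM and -0.38 in DM, and Erap1 by -0.36 and -0.37. In the additive fit 0 of 9 members passed for BTZ by limma's adjusted p and 0 had an unadjusted p under 0.05, where 14.2% and 31.8% of all genes did.

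The constitutive counterparts of the inducible subunits behaved differently under BTZ. Psmb5, Psmb6 and Psmb7 hold the catalytic sites that Psmb8, Psmb9 and Psmb10 replace. Psmb6 rose by 1.21 (SE 0.154), Psmb7 by 0.97 (SE 0.140) and Psmb5 by 0.85 (SE 0.163) in the limma fit, with adjusted p of 0.0139, 0.0166 and 0.0287. The assembly factor Pomp, which also serves the immunoproteasome, rose by 0.86 (adjusted p = 0.0240) and the nuclear activator Psme4 by 1.27 (adjusted p = 0.0120). These were 5 of the 7 partner genes, the others being Psme2 and Psme3, while 7.31% of all genes passed as higher. Without the untreated GM array or the untreated DM array none of the 5 passed, at adjusted p between 0.146 and 0.283, and without either TNF-α array Psmb5 and Pomp missed at 0.05052 to 0.05685. With only the untreated and BTZ arrays Psmb5 missed at 0.0541. With TNF-α the 3 constitutive genes differed by 0.12 to 0.35 in GM and by -0.08 to 0.17 in DM.

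Psme1 and Psme2 together form the PA28 ring, yet their values differed with TNF-α. Psme1 was higher by 0.74 and 0.82 in GM and DM, and Psme2 differed by 0.23 and -0.19. Psme2 has a close copy, Psme2b, so its probe set may not read 1 gene alone.

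**Figure D4:**
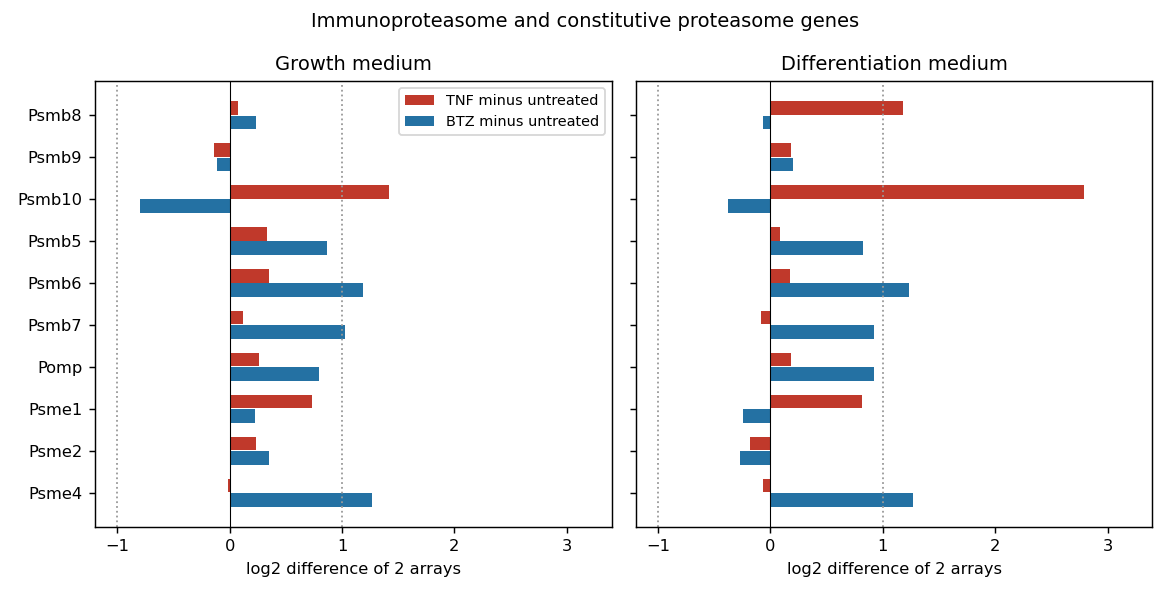
Log2 difference from the untreated array of the same medium (horizontal axis) for inducible subunits (Psmb8, Psmb9, Psmb10), their constitutive counterparts (Psmb5, Psmb6, Psmb7), Pomp and the activator genes Psme1, Psme2 and Psme4, with TNF-α in red and BTZ in blue; each bar is a difference of 2 arrays, and dotted lines mark 2-fold. Psmb10 reaches 1.41 and 2.79 with TNF-α and is below 0 with BTZ, while Psmb6 reaches 1.19 and 1.23 with BTZ and at most 0.35 with TNF-α; Psmb9 is under the floor throughout.

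The 2 media were also compared without a treatment. The untreated cultures differ in medium and in differentiation, and no time is recorded for the GM culture, so these cannot be told apart. Between the untreated DM and GM arrays the 9 members differed by -0.69 (Tap1) to 0.40 (Tap2), with a median of 0.16, and 0 were past 2-fold. The background was 4.83% of genes higher in DM and 3.92% lower by 2-fold or more. In the additive fit 0 members passed for medium by limma's adjusted p, beside 4.03% of all genes. Erap1 (0.45, SE 0.175) and Tap2 (0.57, SE 0.224) had an unadjusted p under 0.05, as did 22.6% of all genes.

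Other heavy chains and class I-like genes were read from a list of 23. Of these, 14 had a single-symbol probe set and 8 were above the floor. With TNF-α in GM 0 of the 8 were past 2-fold, the largest difference being 0.78 for H2-Q4, and the median was -0.07. In DM 3 passed 2-fold upward and 0 downward (median 0.43), beside 2.01% and 0.879% of all genes: H2-Q4 at 1.14, H2-M3, which presents formylated peptides, at 1.13 and H2-T23 (Qa-1), a ligand of natural killer cell receptors, at 1.07. With BTZ, H2-T23 differed by -1.075 in GM and -2.32 in DM, where the BTZ values of 4.795 and 4.23 are both under the floor. Mr1, which presents vitamin B metabolites, differed by -0.46 and -0.31 with TNF-α. The Q and T genes have near-identical copies, so a probe set may read more than its named gene. H2-Q4 is the mean of 2 probe sets, and its TNF-α estimate of 0.96 in the additive fit ran from 0.76 to 1.59 over the alternative settings. H2-D1 has no single-symbol probe set and was not analysed here.

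Of the loading and trimming genes outside the set, 9 were above the floor. Tapbpl, the tapasin relative that edits peptides, was higher with TNF-α by 0.75 in GM and 1.28 in DM. In GM 0 of the 9 were past 2-fold and in DM Tapbpl was the 1, beside 0.982% and 2.01% of all genes higher by that much. The medians over the 9 were 0.21 and 0.09. The chaperones Calr and Canx, which help fold the heavy chain, differed by -0.08 and -0.05 in GM and by 0.25 and 0.17 in DM. The cytosolic peptidases Thop1 and Lap3 were higher by 0.57 and 0.45 in GM and differed by -0.10 and 0.07 in DM. In the additive fit 0 of the 9 passed for TNF-α by limma's adjusted p. Tapbpl at 1.01 (SE 0.247, adjusted p = 0.479) was the 1 with an unadjusted p under 0.05, beside 3.73% of all genes higher. For BTZ 0 of 9 passed, beside 14.2% of all genes in either direction. At an unadjusted p under 0.05, 3 were higher: Blmh (0.655), Tpp2 (0.61) and Lap3 (0.52), as were 2291 of all 13652 genes. These 3 are cytosolic peptidases, but the peptidases Thop1 (-0.43) and Npepps (0.08) of the same list did not follow them. Pdia3, the oxidoreductase of the loading complex, differed by 0.02 and 0.71 with BTZ in GM and DM.

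Regulators known to drive class I genes moved in part with the members under TNF-α. Of 17 above the floor, 4 were at least 2-fold higher with TNF-α in GM and 6 in DM, with 0 lower in either, and medians of 0.19 and 0.54. The shares of all genes higher by that much were 0.982% and 2.01%. Irf1, a transcription factor for many class I and immunoproteasome promoters, measured 6.49 untreated and 7.75 with TNF-α in GM, and 6.71 and 8.71 in DM. The NF-kB subunit genes Nfkb2 and Relb were higher by 1.75 and 1.17 in GM and by 1.37 and 1.40 in DM. Ifngr2 and Ifngr1, the chains of the interferon-γ receptor, were higher by 1.01 and 0.59 in GM and by 1.25 and 1.66 in DM. Nlrc5, the class I transactivator, lay near the floor and differed by 0.00 and 0.20. Stat2 differed by -0.55 in GM and 0.71 in DM. Ifnb1 was under the floor on all 6 arrays, between 2.97 and 3.53. In the additive fit 0 of 17 passed for TNF-α by limma's adjusted p and 8 had an unadjusted p under 0.05, all higher, as did 3.73% of all genes.

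Among 4787 genes outside these lists that were above the floor and spanned at least 1 log2 unit, 5 followed the mean of the 9 members most closely over the 6 arrays, by Pearson's r. They were the chemokine Cxcl16 (r = 0.9985), the lectin receptor Clec4e (0.9971), haptoglobin, Hp (0.9951), the cytokine receptor chain Il10rb (0.9932) and the NF-kB feedback gene Tnip3 (0.9928). With 6 arrays and 1 array far above the rest, such values describe a shape only. Cxcl16 measured 6.19, 8.01 and 6.56 in GM and 6.38, 9.52 and 6.26 in DM. Clec4e and Tnip3 were under the floor on all 4 arrays without TNF-α and met it only through the TNF-α arrays. Over those 4 arrays Cxcl16 spanned 6.19 to 6.56, Hp 4.99 to 5.28 and Il10rb 7.71 to 7.88. All 5 genes met the range only through the TNF-α arrays, so the r of each rests mainly on those. Of the members themselves, H2-K1 (0.978), Erap1 (0.968) and Psmb10 (0.967) were nearest to that mean, of which they are part, and Tap1 was farthest (0.073).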

How the data were processed

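RNA from 6 cultures was measured on 6 arrays. The authors deposited 1 log2 value per probe set and array; the scale is read from the values, which run as log2 signals of such arrays do. Per the labels' protocols, total RNA was amplified and biotin-labelled with a whole-transcript kit. How probe sets were summarized and arrays normalized is not given in the sources used here. The values were used unscaled. Of 41345 probe sets, 23521 name 1 gene symbol in the platform annotation, 1814 several and 16010 none; only the first were used. A gene is the mean of its probe sets, and Tapbp is the 1 member with 2. Genes were tested where the highest array reached the median of all values.

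Differences of 2 arrays carry no test. The additive model was fitted by lmFit and trended eBayes of limma (3.58.1, under R 4.3.3), with Benjamini-Hochberg adjustment over 13652 genes at 0.05, and was tested on simulated data. It treats the 2 media as 2 observations of a treatment. Its p-values therefore rest on how unequally the treatments acted in GM and DM. Without replicate cultures this cannot be told apart from the spread between cultures. Arrays and groups follow the titles in the labels.

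Named were all 10 members; of each list of other class I genes, up to 4 with the largest difference in a comparison and the 3 constitutive subunits; and the 5 genes closest to the mean of the members. Nlrc5, Ifnb1 and the class II genes fall outside this rule and were chosen after their values were seen. Members and lists were chosen with earlier results of these data known. Alternatives were median-shifted and quantile-normalized arrays, the brightest probe set, no floor or a floor 1 log2 unit higher, eBayes without trend, fewer arrays, and each array left out.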

Additional observations from a re-analysis of the deposited data

Results flagged for a closer look

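Several members had differences of opposite sign in the 2 media, each from 2 arrays a medium, and the difference between media was not tested. For TNF-α this was Tap1, -0.30 in GM and 0.74 in DM, a difference of 1.04. For BTZ it was Tap1 (-0.12 and 1.07, a difference of 1.19), Tapbp (0.08 and -0.67, a difference of -0.744), Psme1 (0.22 and -0.25, -0.472), B2m (0.39 and -0.02, -0.41) and Psmb8 (0.23 and -0.07, -0.298). Of the values within a medium, the Tap1 value in DM with BTZ was the 1 past 2-fold.

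Probe sets that name several class I genes were left out of the comparisons, and 2 of them were at least 2-fold above the untreated array with TNF-α in DM. The probe set shared by H2-T22 and H2-T9 was higher by 1.55, and one shared by H2-Q7, H2-Q8 and H2-Q9 by 1.21. In GM these differed by 0.26 and 0.63. A second probe set of the same 3 Q genes was higher by 0.71 in DM.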

How the results depend on the processing

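No count of members past 2-fold moved by over 1.5 times under the 2 scalings, the 2 floors or the brightest probe set; the last gave 4 members in place of 3 for TNF-α in GM, since the brighter Tapbp probe set is past 2-fold. The median excess of TNF-α in DM lay between 0.57 and 0.76 and the median BTZ difference between media between -0.298 and -0.269. The additive fit depended more on its settings. For TNF-α, 0 members passed; with median-shifted arrays 1 did and with the higher floor 1 did, Erap1 both times (adjusted p = 0.0493 and 0.0482 by limma). With only the untreated and TNF-α arrays 6 passed for TNF-α and 2 for medium (B2m and Tap2). Leaving out 1 BTZ array bases the TNF-α and medium estimates on those same arrays. Leaving out any 1 array leaves a lone array of a treatment, which was then assumed to vary like the rest, so no count of passing members is given here. For BTZ the Tapbp estimate was -0.81 without the GM BTZ array and -0.29 over all 6 arrays. Over all genes the fit called 13 for TNF-α and 550 for medium, against 206 and 3209 with only the untreated and TNF-α arrays, and 1933 for BTZ against 1312 with only the untreated and BTZ arrays. With quantile normalization it called 7 for TNF-α; without either untreated array it called 0 for TNF-α and 0 for BTZ, while 368 to 597 genes for TNF-α and 2209 to 2362 for BTZ had an unadjusted p under 0.05. The cause was not tested. No paired analysis by replicate number was possible because each group has 1 array; the medium term of the additive fit compares treatments within each medium. Precision is limited by the single array per group, and for Psmb8, Psmb9 and Tap2 by signals near the floor.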

Other observations

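MHC class II genes, which professional antigen-presenting cells use, did not accompany class I. Of 4 with a single-symbol probe set, H2-Aa and H2-Ab1 were under the floor on all 6 arrays. H2-Eb1 lay between 5.24 and 6.01, highest on the untreated GM array, and Ciita, the class II transactivator, between 5.04 and 5.41. With TNF-α in DM, H2-Eb1 differed by -0.03 and Ciita by -0.26, and with TNF-α in GM by -0.55 and -0.15. Cd1d1, which presents lipids, was above the floor on the GM BTZ array alone, at 5.74 against 4.68 untreated, and Rfxank, a subunit of the factor that binds class I and class II promoters, was higher with BTZ by 1.07 in GM and 0.78 in DM (0.93, SE 0.190, limma adjusted p = 0.0327, at most 0.263 with 1 array left out).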
